A study of Drosophila melanogaster with 2 samples.

Results

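The genes described here encode the subunits of the proteasome and their paralogs in Drosophila melanogaster. They were taken as every protein-coding gene of the Ensembl BDGP6 annotation whose name begins with Prosalpha, Prosbeta, Rpn or Rpt followed by a digit, which gave 48 of 13968 protein-coding genes. The names of 32 carry no suffix, and these are called ubiquitous subunits here. The other 16 end in T or R and are called paralogs. Chromatin immunoprecipitation and sequencing located OdsH, a homeodomain protein, in 2 biological replicates of 1 group, so there was no comparison between conditions. Both replicates were whole wandering larvae of the third instar, from the transgenic strain OdsH-GFP, in which OdsH carries eGFP at its C terminus, and an antibody against GFP was used. The labels give neither the sex nor the age of the larvae, nor the promoter that drives the fusion, and whole animals mix all tissues, so a summit cannot be placed in a cell type. The deposited data were lists of peaks on the dm6 build, each with a summit and a signal value set by the authors' caller on a scale that is not stated. A thresholded list held 7223 peaks with a lowest signal of 109, and relaxed lists that include background held 30000 peaks each for the pooled data, replicate 1 and replicate 2. A gene is called bound below where a thresholded summit lay within 1 kb of any of its annotated start sites. The number of reads behind a peak is unknown, and no control library was analysed here.

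The proteasome degrades proteins that carry ubiquitin chains. Its core particle is a barrel of outer alpha rings, which gate the entrance, and inner beta rings, of which the Prosbeta1, Prosbeta2 and Prosbeta5 subunits cut peptide bonds. The regulatory particle that caps the core consists of a ring of Rpt ATPases, which unfold substrates and push them into the core, and of Rpn subunits, which receive ubiquitin chains, remove them and hold the particle together. Every cell needs the ubiquitous subunits, while many of the paralogs with a T or R suffix are known to be expressed mainly in the testis.

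The highest pooled signals at ubiquitous subunits were within 1 kb of the start sites of Rpn5, Rpn3, Rpt5 and Rpn2, all genes of the regulatory particle. At Rpn5 and Rpt5 the summit was closer to a start site of a neighbouring gene. The sequences at these 4 summits are shown because they carry the strongest signals described below. Each run is the Release 6 (dm6) plus strand, 5′ to 3′, cut where an annotated exon begins, so that the stretches for Rpn3 and Rpt5 are shorter. Capitals mark the letters TAAT or ATTA, the core that many homeodomains bind, and TATAAA, the TATA box. The runs cover chr3R:5789139-5789239 for Rpn5, chr2L:19051714-19051789 for Rpn3, chr3R:29153377-29153477 for Rpn2 and chr3R:23752835-23752875 for Rpt5.
Rpn5: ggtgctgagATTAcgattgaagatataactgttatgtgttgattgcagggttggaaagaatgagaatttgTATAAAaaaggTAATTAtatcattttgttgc
Rpn3: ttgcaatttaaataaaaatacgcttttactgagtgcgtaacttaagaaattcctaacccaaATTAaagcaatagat
Rpn2: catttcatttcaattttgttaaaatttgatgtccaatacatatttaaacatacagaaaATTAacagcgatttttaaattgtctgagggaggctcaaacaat
Rpt5: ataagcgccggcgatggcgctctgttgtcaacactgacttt
The Rpn5 stretch held 3 matches to the TAAT core on either strand and 1 TATA box, Rpn3 and Rpn2 held 1 TAAT core each, and the Rpt5 stretch held none of the motifs. The Rpt5 run was cut inside a TATCGATA site that lies 8 bp from the summit and is shown further on. A and T made up 68.3% of the Rpn5 stretch and 73.3% of the Rpn2 stretch, against 46.3% at Rpt5. The Rpn5 and Rpn3 runs were picked by their signal rank in the regulatory particle, and those of Rpn2 and Rpt5 were added after the values were seen.

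Of the 32 ubiquitous subunits 10 were bound, and of the 16 paralogs none was. The bound share was 31.2% for the ubiquitous subunits (exact 95% binomial interval 16.1% to 50%), 0 of 16 for the paralogs (interval up to 20.6%) and 28.0% for all coding genes. The intervals cover counting error only and genes are not replicates, so no test of the difference was made. The ubiquitous share was close to that of all coding genes, and where a summit counted only for the nearest coding gene it was below it, at 12.5% against 20.8%. In the relaxed pooled list, 29 of 32 ubiquitous subunits had a summit within 1 kb, or 90.6% (interval 75.0% to 98.0%), against 0 of 16 paralogs and 57.0% of all coding genes. The separate replicates gave similar counts. Replicate 1 had a summit at 28 ubiquitous subunits and 3 paralogs, where the share of all coding genes was 58.1%. Replicate 2 had one at 30 ubiquitous subunits and 1 paralog, where the coding share was 57.1%. Weak summits were thus near most ubiquitous subunits. Within 1 kb, strong ones were near about the same share of them as of coding genes at large. Within 250 bp and within 500 bp the count of bound subunits was also 10, or 31.2%, above the 19.4% and 24.1% of coding genes.

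**Figure D1:**
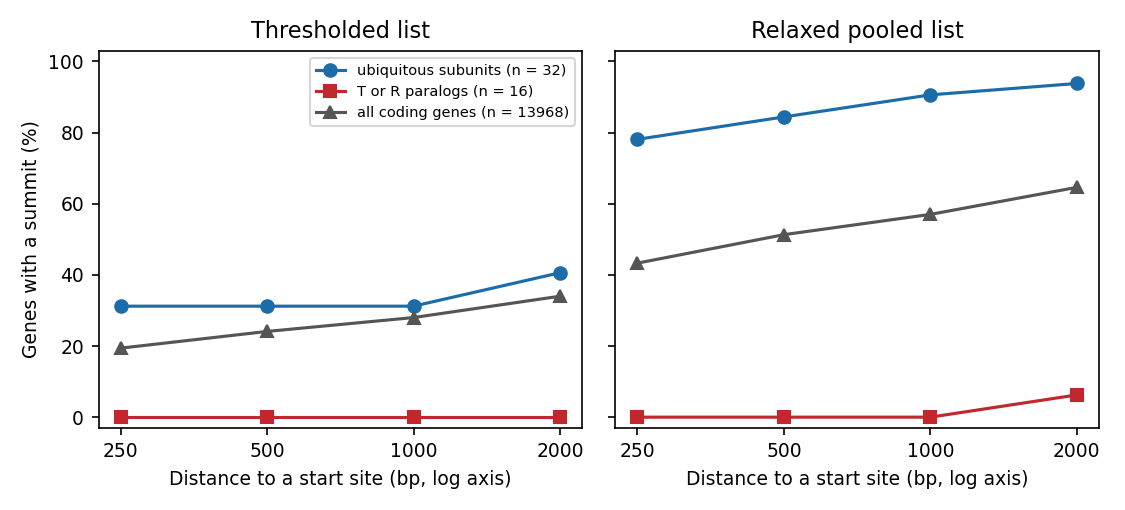
Percentage of genes with a summit within 250, 500, 1000 or 2000 bp of a start site (log axis), in the thresholded list (left) and the relaxed pooled list (right). Circles are the 32 ubiquitous subunits, squares the 16 paralogs and triangles the 13968 coding genes. The ubiquitous subunits lie at 31.2% in the thresholded list from 250 to 1000 bp, and the paralogs lie at 0 in both lists up to 1000 bp.

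Among the Rpn subunits, 6 of 12 were bound (50%), beside 28.0% of all coding genes, and 11 of 12 had a relaxed summit. Rpn5 (FBgn0028690), a scaffold subunit of the lid, had the highest signal of all 48 genes, at 449.9 pooled, with 184.9 in replicate 1 and 260.2 in replicate 2. Its peak, chr3R:5788967-5789410, ranked 967 of the pooled list, and the summit lay 304 bp upstream of the start of Rpn5 in an intron of Hat1, a histone acetyltransferase gene. Rpn3 (FBgn0261396), another scaffold subunit of the lid, had a signal of 318.3 in the pooled list, with 141.3 in replicate 1 and 187.5 in replicate 2. Its summit lay 26 bp upstream of the start site, in the peak chr2L:19051542-19051985. Both genes were higher in replicate 2 than in replicate 1.

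Rpn2 (FBgn0028692) encodes the large base subunit on which the ubiquitin receptor Rpn13 docks. At Rpn2 the pooled signal was 215.3, with 121.6 in replicate 1 and 91.17 in replicate 2, and the summit lay 97 bp upstream of the start in the peak chr3R:29153205-29153648. Rpn13 (FBgn0033886) itself had a pooled signal of 165.5, and 80.39 in replicate 1 and 82.34 in replicate 2 were nearly equal. Its summit lay 65 bp upstream, on the side of CtsL1, which encodes the lysosomal protease cathepsin L. Rpn6 (FBgn0028689), a lid subunit that clamps the regulatory particle to the core, had a pooled signal of 204.5, and the replicates lay apart at 75.49 and 122.9. Rpn8 (FBgn0002787), the partner of the deubiquitinase Rpn11, had the lowest bound signal among the Rpn subunits, at 116.4 pooled, 48.37 in replicate 1 and 64.81 in replicate 2. Rpn6 and Rpn8 have 2 annotated start sites each, and both summits lay in an intron of the longer transcript and upstream of the inner start site, by 139 bp at Rpn6 and by 169 bp at Rpn8. The peaks were chr2R:13960247-13960690 for Rpn13, chr2R:14752188-14752631 for Rpn6 and chr2R:24402614-24403057 for Rpn8.

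Outside the Rpn subunits, 4 of 20 ubiquitous genes were bound. The ring of Rpt ATPases had 1 bound gene of 6 (16.7%), the beta rings 2 of 7 (28.6%) and the alpha rings 1 of 7 (14.3%), beside 28.0% of all coding genes. The intervals in the same order were 0.421% to 64.1%, 3.67% to 71.0% and 0.361% to 57.9%. Rpt5 (FBgn0028684) had a pooled signal of 292.0, and its replicates were nearly equal, at 146.3 and 145.6. Its summit, in the peak chr3R:23752620-23753063, lay 34 bp upstream of the start of Rpt5 and inside the 42 bp that separate it from the start of RanBP3, a nuclear transport cofactor gene. Both bound genes of the beta rings encode catalytic subunits. Prosbeta1 (FBgn0010590), the caspase-like subunit, had a signal of 142.0 pooled, with 75.74 in replicate 1 and 58.78 in replicate 2. Prosbeta5 (FBgn0029134), the chymotrypsin-like subunit, had the lowest signal of the 10, at 115.8 pooled, 60.40 in replicate 1 and 59.08 in replicate 2. In the alpha rings the bound gene was Prosalpha7 (FBgn0023175), with 116.7 in the pooled list, with 64.22 in replicate 1 and 56.62 in replicate 2. The peaks were chr2R:16014635-16015078 for Prosbeta1, chr2R:10819662-10820105 for Prosbeta5 and chr2R:9847671-9848114 for Prosalpha7. Of 7223 thresholded peaks, those of Prosalpha7 and Prosbeta5 ranked near the bottom, at 6634 and 6700, and that of Prosbeta1 ranked 5161.

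**Figure D2:**
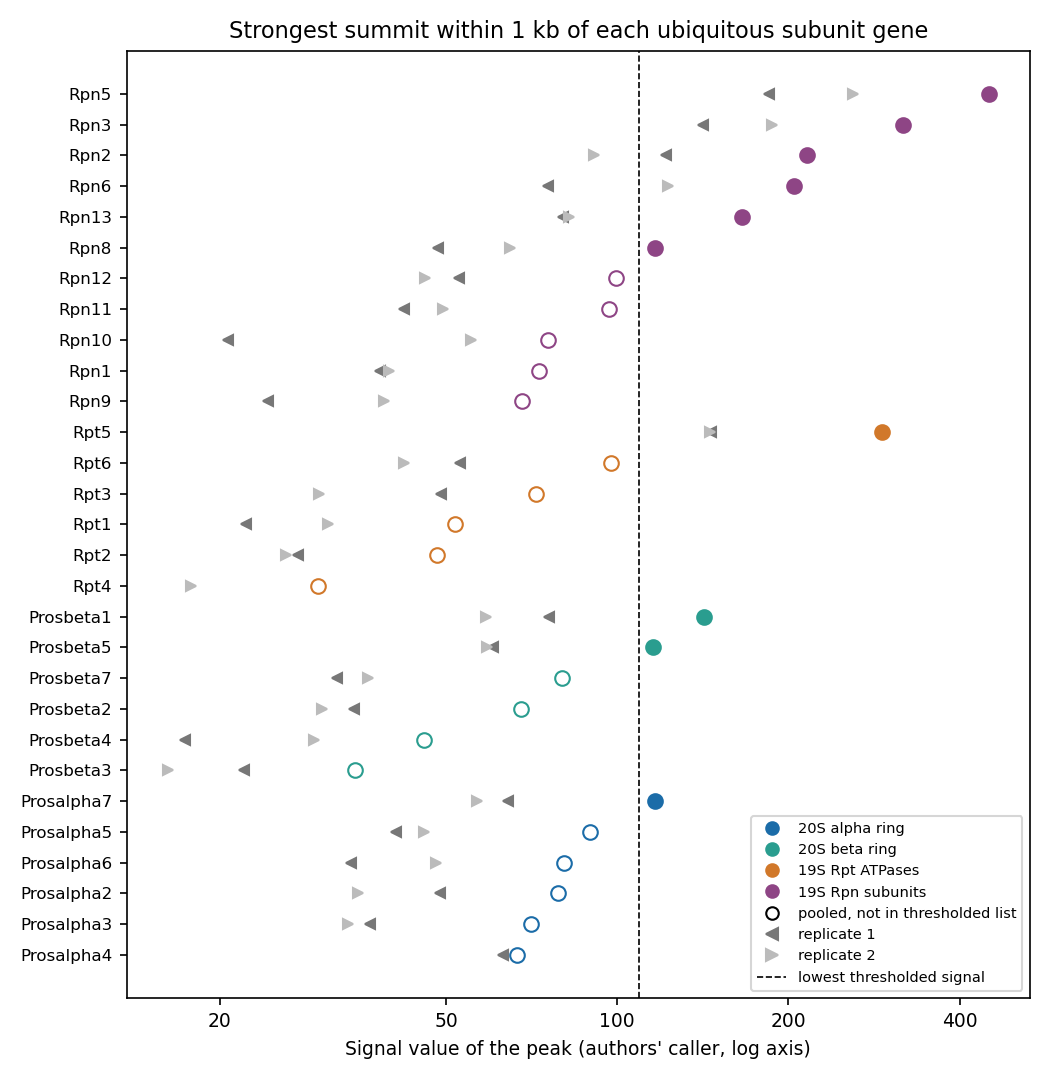
Signal value of the strongest summit within 1 kb of each of the 29 ubiquitous subunit genes that had one (log axis, authors' caller), grouped and coloured by part of the proteasome. Large circles are the pooled list, filled where the peak was thresholded, and triangles are the strongest peaks of replicate 1 and replicate 2 within 200 bp. The dashed line is the lowest thresholded signal, 109, and Rpn5, Rpn3 and Rpt5 lie farthest to its right.

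The median pooled signal of the 10 bound subunits was 185.0, against 212.8 over all bound coding genes. Of the 10, 5 ranked in the upper 3611 thresholded peaks, beside 2268 of the 3910 bound coding genes. In the core particle 3 of 14 genes were bound and 12 had a relaxed summit. In the regulatory particle 7 of 18 were bound and 17 had a relaxed summit. The bound shares were 21.4% for the core particle and 38.9% for the regulatory particle, on either side of the 28.0% of all coding genes. The relaxed shares were 85.7% and 94.4%, beside 57.0%. No test of the difference between the particles was made.

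The 19 ubiquitous subunits with a relaxed summit alone ran from just below the threshold to close to the end of the list. Rpn12, a lid subunit, had 99.38 pooled, with 52.66 in replicate 1 and 45.88 in replicate 2. Rpt6, an ATPase, had 97.49, 52.89 and 42.23 in the same order, and Rpn11, the deubiquitinase of the lid, had 96.61, 42.20 and 49.36. These were the values just outside the threshold, and Prosbeta5 at 115.8 and Rpn8 at 116.4 were those just inside it. Rpn12 and Rpn11 also had a thresholded summit farther out, at 1481 and 1498 bp from a start site. Among the 27 subunits with a peak of both replicates within 200 bp of the pooled summit, Rpn10, a ubiquitin receptor, had the largest difference between replicates, with 75.45 in the pooled list, with 20.68 in replicate 1 and 55.40 in replicate 2. For Rpn1, the base subunit that docks ubiquitin shuttles, the values were 72.84 pooled, 38.35 and 39.65. Rpn9, a scaffold subunit of the lid, had 68.10 pooled, 24.34 in replicate 1 and 38.89 in replicate 2. No Rpn gene with a summit fell below the 68.10 of Rpn9.

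Of the unbound ATPase genes, Rpt3 had 71.96 pooled, with 48.93 in replicate 1 and 29.85 in replicate 2. Rpt1 had 51.94 pooled, 22.29 and 30.98, and Rpt2, whose product opens the gate of the core in yeast, had 48.19, 27.47 and 26.18. Rpt4 had the weakest summit of any ubiquitous subunit that had one, with a pooled signal of 29.76, a replicate 2 signal of 17.81 and no peak of replicate 1 within 1 kb. The pooled list itself ended at 27.2, so the Rpt4 value lay close to the background that the list includes.

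In the alpha rings the unbound genes with a relaxed summit fell in a narrow band. Prosalpha5 had 89.71 in the pooled list, with 40.90 in replicate 1 and 45.69 in replicate 2, and Prosalpha6 had 80.59, 34.03 and 47.93. Prosalpha2 had 78.66 pooled, 48.77 and 35.06, and Prosalpha3, whose N terminus helps to close the gate in the yeast core particle, had 70.67, 36.79 and 33.62. Prosalpha4 had 66.58 pooled and 62.99 in replicate 1, without a replicate 2 peak within 200 bp of the summit, the strongest within 1 kb of a start site being 17.05. Its summit lay 691 bp upstream, the farthest of all 29, in the 5′ untranslated region of kat80. In the beta rings, Prosbeta7 had 79.97 pooled, with 32.12 in replicate 1 and 36.39 in replicate 2. The trypsin-like subunit Prosbeta2 had 67.80 pooled, 34.51 and 30.22, so the 3 catalytic subunits were spread over both sides of the threshold. Prosbeta4 had 45.75 pooled, 17.37 and 29.26, and Prosbeta3 had 34.60, 22.09 and 16.21.

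Only 3 ubiquitous subunits had no relaxed pooled summit within 1 kb. The nearest one lay 1132 bp from Prosbeta6, 2761 bp from Rpn7 and 3290 bp from Prosalpha1. Rpn7, a lid subunit, had a weak summit in replicate 2 alone, with a signal of 18.19 at 327 bp upstream. Prosalpha1 and Prosbeta6 had none in any list, the only ubiquitous subunits of which that was true. The Prosbeta6 summit at 1132 bp was a thresholded one.

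Replicate signals at the bound genes were of like size. The log2 ratio of replicate 2 to replicate 1 had a median of 0.01 over the 10 bound genes (SD 0.38, 5 higher in each replicate), and 0.03 over the 27 subunits with a peak in both replicates (SD 0.48, range -0.71 to 1.42). Over the 7173 thresholded peaks with a peak in both replicates the median was 0.26 (SD 0.45), and 5578 were higher in replicate 2. No test was made of the lower medians at the subunits. Among the 7223 highest peaks of each replicate, 9 of the 10 bound genes were found in replicate 1, 7 in replicate 2 and 6 in both. Rpn8 was the one absent from the top of replicate 1, and Prosalpha7, Prosbeta1 and Prosbeta5 were those absent from the top of replicate 2. For comparison, 82.2% of all thresholded peaks ranked in the top of both. All 3 bound core particle genes were thus outside the top of replicate 2, but only just. Their signals there were 56.62 for Prosalpha7, 58.78 for Prosbeta1 and 59.08 for Prosbeta5, and that top ended at 59.3.

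**Figure D3:**
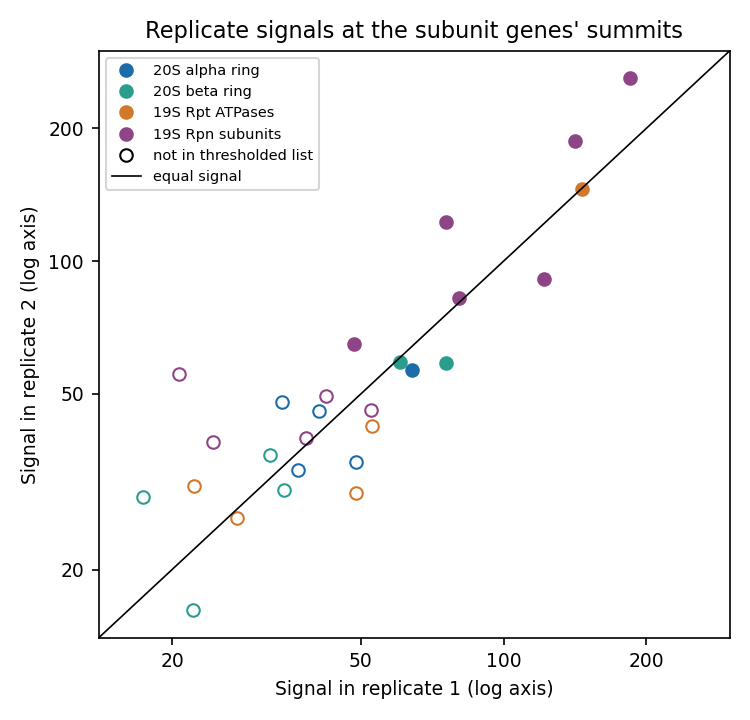
Signal in replicate 1 against replicate 2 (both log axes) at the strongest summit of the 27 ubiquitous subunits with a peak in both replicates. Colours give the part of the proteasome, filled circles are thresholded peaks, and the line marks equal signal. The points lie on both sides of the line, and Rpn10, at 20.68 and 55.40, is the farthest above it.

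The strongest summit of each of the 10 bound subunits lay upstream of the subunit's nearest start site, with a median of 82 bp (26 to 304 bp). The share of strongest summits that lay upstream was 78.9% over all bound coding genes. All 10 bound subunits also had a coding neighbour in head-to-head orientation, that is, on the other strand with a start site within 1 kb upstream. Of all bound coding genes 59.3% had one. Among bound genes of other sets the share was 66.7% for cytoplasmic ribosomal proteins, 90.9% for mitochondrial ribosomal proteins and 85.7% for aminoacyl-tRNA synthetases. These sets were thus on the same side of 59.3% as the subunits. Among genes bound or not, such a neighbour was present at 22 of 32 ubiquitous subunits (68.8%), 4 of 16 paralogs (25%) and 36.2% of all coding genes. Among subunits with one, 10 of 22 were bound (45.5%), beside 45.9% of the coding genes with one. Of the 10 subunits without one, none was bound, beside 17.9% of the coding genes without one. In the relaxed list the count was 20 of 22 (90.9%) with a neighbour, beside 77.3% of coding genes, and 9 of 10 (90.0%) without one, beside 45.4% of coding genes. The bound share of ubiquitous subunits in head-to-head pairs was therefore close to that of coding genes in such pairs.

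The start sites of the bound pairs were 42 to 325 bp apart, with a median of 201.5 bp, against 290.5 bp over the 2318 bound coding genes in head-to-head pairs. The strongest summit lay between or on the start sites of the pair at all 10 subunits, against 75.2% of those coding genes. With the closest pair of start sites alone it was 9 of 10, against 59.1%, the exception being Rpn5, where the summit lay between its start and the farther of the start sites of Hat1. The partners were Hat1, l(2)37Bb, RanBP3, Slbp, which encodes the binding protein of the histone mRNA stem-loop, the Ras pathway adaptor gene ave, CtsL1, the exosome gene Rrp42, CG1671, the kinase gene Slik and the planar polarity gene dgo. The summit assigned to Prosbeta5 lay exactly on the annotated start site of dgo. The subunit was the coding gene with the nearest start site at 4 of the 10 summits, which were those of Rpn3, Rpn2, Rpn13 and Prosalpha7, against 70.8% of all bound coding genes and 53.8% of those in head-to-head pairs. At the other 6 the summit was closer to a start site of the partner, and which of the genes OdsH acts on, if any, was not tested.

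**Figure D4:**
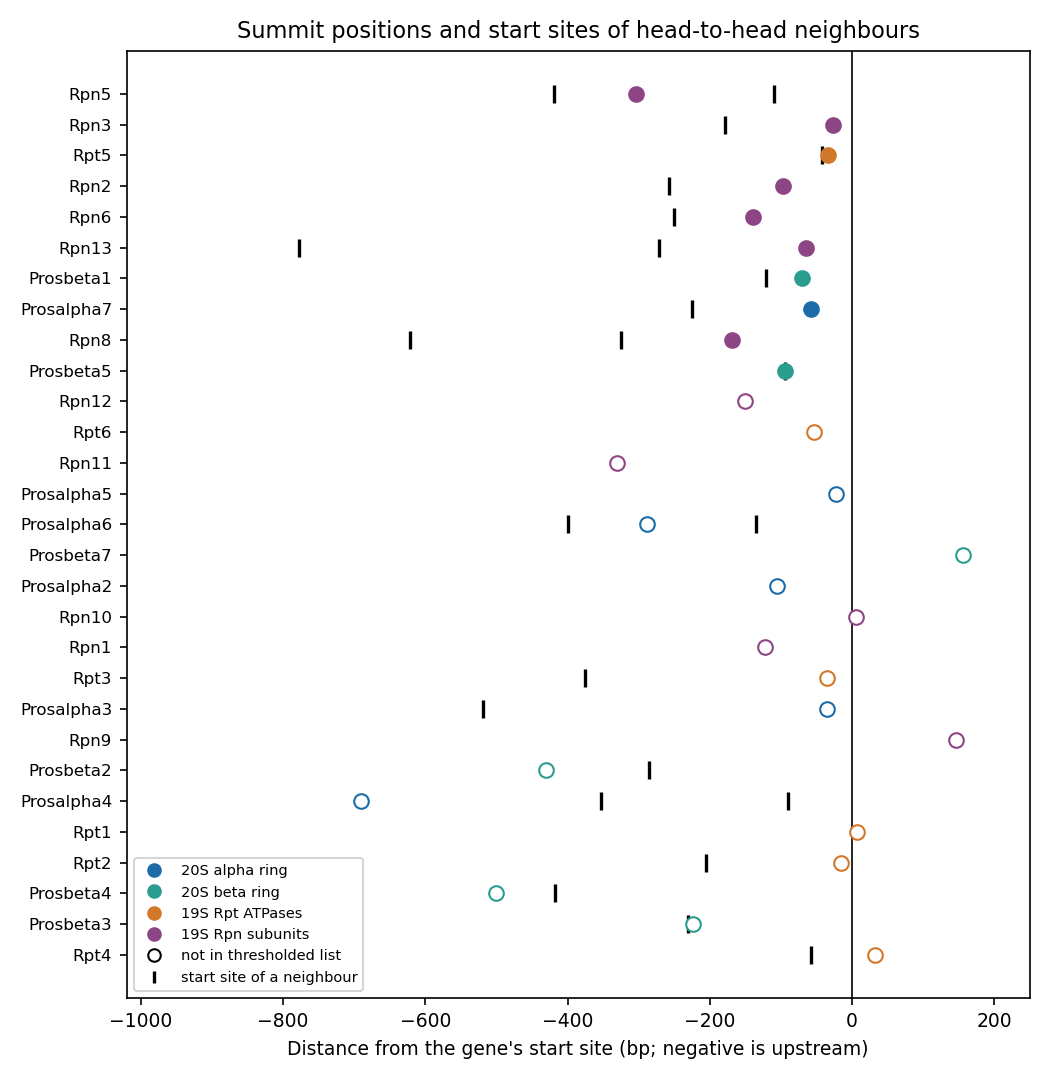
Distance of the strongest summit from the subunit's nearest start site, in bp with upstream negative, for the 29 ubiquitous subunits with a relaxed summit, ordered by pooled signal with the 10 bound ones on top. Circles are summits, filled where thresholded, and vertical ticks are start sites of coding genes on the other strand within 1 kb upstream. Every filled circle lies between 0 and -304 bp and has a tick at or beyond it.

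With no relaxed summit within 1 kb, every paralog had to lie more than 1 kb from one, so distance is not a separate result. The nearest relaxed summit was 1970 to 13353 bp from a paralog's start site, with a median of 6561 bp, against a median of 77.5 bp for ubiquitous subunits and 427 bp for all coding genes. The closest was Prosbeta5R1 at 1970 bp, the testis paralog of a bound catalytic subunit, followed by Prosbeta2R2 at 2083 bp and Prosbeta4R2 at 2740 bp. The farthest were Rpn13R at 12059 bp, Prosbeta5R2 at 12781 bp and Prosalpha4T1 at 13353 bp. No paralog was within 1 kb of a relaxed pooled summit, and in 13 of 16 no list held one. The 4 summits near paralogs in the replicate lists were weak. Rpt3R had one in replicate 1 with a signal of 26.01, and Rpt6R had one in replicate 1 with 21.25. Prosbeta2R2 had one in each replicate, 17.51 in replicate 1 and 24.44 in replicate 2, but these lay 707 bp downstream and 305 bp upstream of the start, so they were not the same site. The replicate lists themselves ended at 14.8 and 14.6.

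**Figure D5:**
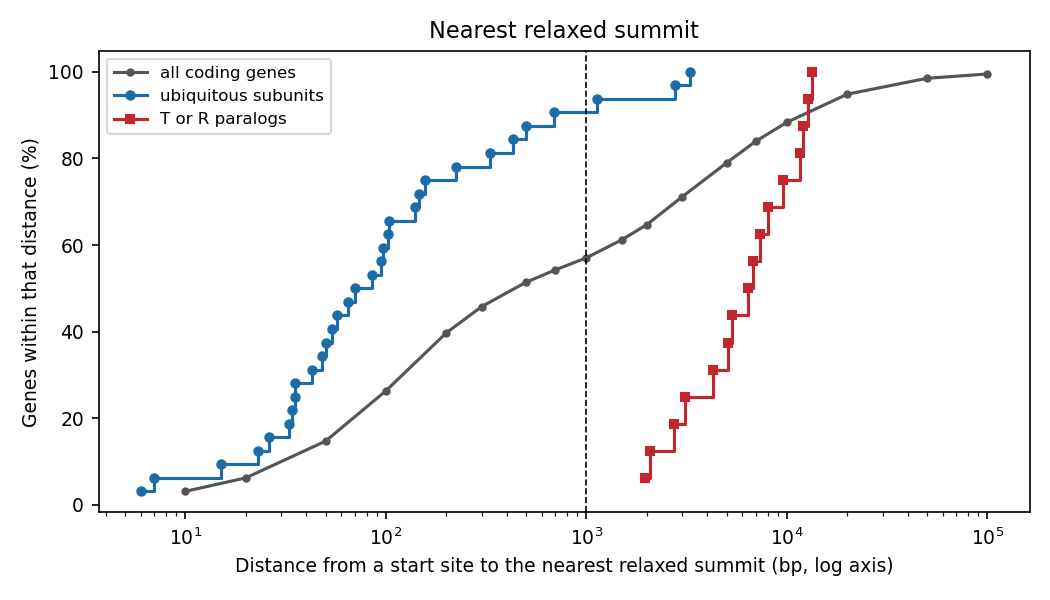
Cumulative percentage of genes (vertical axis) whose nearest relaxed pooled summit lies within a given distance of a start site (horizontal axis, bp, log axis). Circles are the 32 ubiquitous subunits, squares the 16 paralogs and the grey line all 13968 coding genes, with a dashed line at 1000 bp. The paralogs begin at 1970 bp, where most ubiquitous subunits have already been reached.

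The surroundings of the start sites were counted in the same way. Of the paralogs 14 of 16 have 1 annotated start site, against 22 of 32 ubiquitous subunits. A start site lies inside another coding gene at 5 of 16 paralogs (31.2%), 5 of 32 ubiquitous subunits (15.6%) and 18.2% of all coding genes. The paralogs are Prosalpha4T1 in CG42322, Prosbeta4R2 in the odorant receptor gene Or23a, Rpn12R in Sytbeta, Rpn13R in CG15465 and rg, and Rpt3R in Alg12. Among genes with 1 start site, 6 of 22 ubiquitous subunits were bound (27.3%), 0 of 14 paralogs were, and the share over all such coding genes was 21.5%. In the relaxed list these were 19 of 22 (86.4%), 0 of 14 and 49.1%. All 4 paralogs with a head-to-head coding neighbour, Prosalpha1R, Prosbeta2R2, Prosbeta4R1 and Rpt3R, were also without a relaxed summit. The part of promoter type in the difference between subunits and paralogs was not tested beyond these counts.

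Short motifs were searched on both strands within 50 bp on either side of each summit and in the promoters, taken from 250 bp before to 50 bp after the start site of the main transcript. The homeodomain core TAAT was at 8 of 10 bound subunit summits and at 75.0% of all thresholded summits, and the longer TAATTA at 1 of 10 and 9.72%. The CGATA letters of the boundary factor BEAF were at 5 of 10 bound summits against 13.9% of thresholded summits, and the TATA box TATAAA at 2 of 10 against 21.6%. TATCGATA, the site of the replication-related promoter factor DREF, which contains CGATA, was at 1 of 10 against 1.11%. The E-box CAGCTG was at 1 of 10 against 3.90%, and GAGAG at 1 of 10 against 11.5%. A and T made up a median of 68.3% of these bases at bound subunits and 67.3% at all thresholded summits. The bound subunit summits all lay within 1 kb of a start site, whereas the thresholded summits were counted wherever they lay. These shares are therefore not matched for promoters, and an excess at subunits over other promoters cannot be read from them. A match is a description of letters and was not taken as a site of OdsH or of any factor.

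In the promoters, TATCGATA was found at 11 of 32 ubiquitous subunits (34.4%), 1 of 16 paralogs (6.25%) and 8.94% of all coding genes. CGATA, which every such site also contains, was in 26 of 32 (81.2%), 8 of 16 (50%) and 46.9%. GGTCACACT, the site of M1BP, was in 6 of 32 (18.8%), 0 of 16 and 5.86%. The antioxidant response element TGACNNNGC, to which Cnc binds with Maf-S, was in 5 of 32 (15.6%), 1 of 16 (6.25%) and 8.47%. GAGAG, the letters of the GAGA factor, were in 3 of 32 (9.38%), 6 of 16 (37.5%) and 30.2%, and the E-box CAGCTG in 2 of 32 (6.25%), 0 of 16 and 17.9%. TAAT was in every subunit and paralog promoter and in 92.8% of coding promoters. GGTGGCAAA, the site through which Rpn4 controls proteasome genes in yeast, was in none of the 48 and in 0.494% of coding promoters.

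TATCGATA was in a larger share of ubiquitous promoters than of coding promoters, and its surroundings are shown at 20 bp, on the strand of the gene, 5′ to 3′, in Release 6 (dm6) letters, with the capitals marking TATCGATA.
Prosalpha6, chr2L:10221329-10221348: atccctTATCGATAcccgat
Prosbeta2, chr3L:14999935-14999954: aatataTATCGATAcaatat
Prosbeta6, chr3L:16610449-16610468: tataccTATCGATAacgttt
Rpn3, chr2L:19051587-19051606: tcggagTATCGATAtcgaaa
Rpn7, chr3R:22462038-22462057: ataattTATCGATAattttg
Rpn9, chr3R:23733423-23733442: gttaaaTATCGATAttctcg
Rpn12, chr3L:16582806-16582825: aaaataTATCGATAttaaag
Rpt5, chr3R:23752824-23752843: tgtcacTATCGATAagcgcc
Rpt3R, chr3R:9756246-9756265: aacagtTATCGATAtttttt
The sites of 3 further ubiquitous subunits are not shown. The flanking bases differ from gene to gene, and the last line is the one paralog with a match. The strands are plus for Prosalpha6, Prosbeta2, Rpn3, Rpn12 and Rpt5 and minus for the other 4. Sites lay from 216 bp upstream to 26 bp downstream of the start site, and 6 of the 11 in ubiquitous subunits were within 100 bp upstream. Of the 11 subunits with the site 3 were bound, beside 10 of all 32 ubiquitous subunits, and 7 of the 10 bound subunits lacked it. A link between the letters and the binding was not tested. At Rpt5 the site lay 8 bp from the summit and at Rpn3 167 bp from it. Rpn7 and Prosbeta6 had the site and no relaxed summit within 1 kb. Over the subunits with both a site and a relaxed summit the distance was 7 to 425 bp, with a median of 61.0 bp. Sites and summits were both searched around the start site, which limits this distance in advance. It was not measured at other promoters, so closeness of site and summit cannot be read from it.

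Genes that make, regulate or feed the proteasome outside the named subunits were taken from a list of 24, of which 23 were found in the annotation. Of these, 12 were bound (52.2%, beside 28.0% of coding genes) and 22 had a relaxed summit (95.7%, beside 57.0%). The strongest was cnc, the transcription factor that activates proteasome genes under stress, with 467.0 in the pooled list, with 199.9 in replicate 1 and 274.8 in replicate 2. Its partner maf-S had 194.6, 91.36 and 94.82, with the summit 676 bp downstream of a start site of maf-S. Pomp, the chaperone of core assembly, had 297.0 pooled, 129.8 and 160.0, which was above every gene of the core particle. The F-box gene ntc had 292.7, and its interaction partner PI31, a proteasome regulator, had 126.1. Among the deubiquitinases, Uch had 156.2 and Uch-L5, which Rpn13 recruits in other species, had 154.6, while Usp14, which Rpn1 recruits in yeast and mammals, had 85.98 and was not bound. The ubiquitin genes were split, with RpS27A at 224.9 and Ubi-p5E at 114.3 bound and Ubi-p63E at 90.16 and RpL40 at 80.41 not. Ufd4 (156.9), Pngl (121.1) and rngo (117.8) completed the bound genes. At 9 of the 12 bound summits the listed gene had the nearest start site (75.0%), beside 70.8% of all bound coding genes. At the summits of maf-S, PI31 and rngo another coding gene was nearer. Sem1, the smallest lid subunit, which the naming rule leaves out, had a relaxed summit of 43.90 at 840 bp upstream. Uch-L5R, a paralog with the R suffix, was the only one of the 23 genes without a relaxed summit.

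By the same count, 69 of 92 cytoplasmic ribosomal protein genes were bound (75.0%), 33 of 73 mitochondrial ribosomal protein genes (45.2%) and 14 of 33 aminoacyl-tRNA synthetase genes (42.4%). In the relaxed list the shares were 92.4%, 87.7% and 63.6%, beside 90.6% for ubiquitous subunits. The ubiquitous subunits were therefore as often near a relaxed summit as the cytoplasmic ribosomal protein genes, but fewer of their summits passed the threshold. RpS27A and RpL40 belong to both the pathway and the ribosomal lists, and no test of these differences was made.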

How the data were processed

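Per the labels, chromatin of whole larvae was sonicated to fragments of 200 to 800 bp and precipitated with an antibody against GFP in 2 biological replicates, and peaks were listed per replicate, for the pooled replicates, and after a threshold on reproducibility. Which aligner and peak caller were used is not given in the sources used here. Signal in the deposited lists comes from the authors' caller, its scale is not stated, and it served only for ranking and description. The deposited −log10 q-value went no higher than 4.12 in the thresholded list and was not used for ranking. Both replicates were called against 1 shared control, which was not analysed here.

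Summits on dm6 were set against start sites of every transcript in Ensembl release 115 (BDGP6), with the strongest summit within 1 kb taken per gene and replicate peaks matched within 200 bp. The sequences are from the Release 6 RefSeq assembly. Every subunit gene was accounted for, with pooled and replicate values for the 10 highest bound subunits and all unbound ubiquitous ones. The members, lists and motifs were chosen with earlier results of these data known. Of the pathway list 23 of 24 names matched. No test was made, since there is 1 group and genes are not replicates. Alternatives were other windows, start sites, thresholds, summit owners and single replicates. The software was numpy 2.4.6, scipy 1.17.1 and matplotlib 3.10.9 under Python 3.11.15, and the search functions were tested on simulated data.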

Additional observations from a re-analysis of the deposited data

How the results depend on the processing

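The count of 10 bound subunits, all of them ubiquitous, stayed within a factor of 1.5 with windows of 250 bp to 2 kb, canonical start sites or peaks overlapping a start site, and ranged from 7 to 11 when replicate 1 or 2 was left out. It moved to 5 in the strongest 3611 thresholded peaks and 29 in the relaxed list, which hold fewer and more peaks, and to 4 when a summit counted only for the nearest coding gene. Under that rule 12.5% of ubiquitous subunits and 20.8% of coding genes were bound, so the order turned from the 31.2% and 28.0% given above. The order also turned without replicate 1 (21.9% and 27.9%) and, slightly, in those 3611 peaks (15.6% and 16.2%). Under the other settings the subunits stayed higher, as without replicate 2 (34.4% and 27.9%) and with peaks overlapping a start site (31.2% and 16.7%). Bound coding genes moved from 3910 to 2330 with peaks overlapping a start site, 2268 in those 3611 and 7957 in the relaxed list. At 2 kb Prosbeta6, Rpn11 and Rpn12 were added. The paralogs had 0 bound under each of these settings. For relaxed summits the alternatives were added after the data were seen: 1 paralog had one at 2 kb, and 1 to 3 when a replicate was left out. The median pooled signal of bound subunits moved from 185.0 to 215.3 at 2 kb and 292.0 in those 3611, where different genes enter it. In the narrower window at the summit TAAT was at 3 bound subunits, and in the wider one CGATA was at 8. The cause was not tested for any of these. Depth is unknown, so a weak or missing summit cannot be told from low coverage. The relaxed lists include background and end at 30000 peaks. Start sites come from the annotation, not from these larvae.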
